A study of Mus musculus with 14 samples.

Results

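PSGL1hi CD4+ T cells from the lung were compared with PSGL1hi CD4+ T cells from the spleen of mice with chronic graft-versus-host disease (cGVHD), by bulk RNA sequencing. The libraries were chosen by their titles, 2 from lung and 2 from spleen, and make up 4 of the 14 libraries of the series. The series profiled CD4+ T cells of spleen, liver and lung in fractions low or high for PSGL1, the selectin ligand that Selplg encodes. Per the labels, recipients were BALB/c mice that received bone marrow depleted of T cells from C57BL/6 donors. In the cGVHD groups, the only ones compared here, splenocytes of the same donor strain were given as well, and tissues were taken on day 30. Donor-derived CD4+ T cells were then sorted into PSGL1lo and PSGL1hi fractions. The 4 libraries of interest are therefore alike in donor, recipient, treatment, time and sorted fraction, and differ in tissue. The 2 liver PSGL1hi libraries and the 4 PSGL1lo libraries of lung and spleen serve as references. The labels used here give neither the age of the animals nor how many stand behind each library. Nothing says that replicates came from separate animals, so p-values measure the spread between these libraries, which may be technical.

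Tissue is confounded with library series. The spleen libraries carry library numbers of one run of numbers, and the liver and lung libraries share another. In every comparison of lung with spleen, the effects of tissue and of library series cannot be told apart. Lung and liver libraries lie within one series, and for that reason liver values are set beside those of lung and spleen for many genes and gene lists. The lung-spleen and lung-liver differences share the lung libraries and are not independent of each other.

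In this disease donor T cells attack the tissues of the recipient, and liver, lung and skin become inflamed and scarred. PSGL1 binds selectins on endothelium and guides leukocytes from blood into tissue, and it can also restrain T cells. CD4+ T cells held in tissue are known for adhesion molecules that fasten them to epithelium and for low levels of the receptors that lead back to lymph and blood, while the spleen holds circulating and recently dividing cells and the follicles where T cells help B cells.

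Each lung library held 25578595 to 28413717 counts and each spleen library 21346229 to 23000993. Levels are given in CPM, read counts scaled to a common library size. Where no read was counted, up to 3 counts remain possible, which is 0.118 to 0.131 CPM in the lung libraries and 0.132 to 0.144 CPM in the spleen libraries, for counting error alone. Histone genes held 0.0823% to 0.0863% of the counts in lung and 1.44% to 1.66% in spleen, and small RNA genes 0.0185% to 0.0195% and 2.03% to 2.44%. The liver PSGL1hi libraries resembled those of lung, with 0.0749% to 0.0756% histone and 0.0227% to 0.0231% small RNA counts. Both classes were left out of the analysis for this reason, 95 histone and 1347 small RNA genes of the 25017 entries, and 13515 of the remaining genes passed the filter on low counts. The biological coefficient of variation estimated by edgeR over all 14 libraries was 7.18%.

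The markers used for the sort were well detected in both tissues. Cd4, the coreceptor used for the sort, stood at 1573 and 1540.3 CPM in the spleen libraries and at 2351 and 2357 CPM in the lung libraries. Selplg itself stood at 527 and 500.1 CPM in spleen, 934 and 995 CPM in lung and 915 and 945 CPM in liver. Both lung libraries were above both spleen libraries for each gene, and for Selplg the lung and liver libraries overlapped. Differences are given as lung minus spleen on the log2 scale ± standard error, with Benjamini-Hochberg adjusted p from edgeR's quasi-likelihood test over the 13515 genes tested. Selplg was higher in lung by 0.91 ± 0.09 (adjusted p = 5.62e-09), and did not pass the test against liver (0.05 ± 0.09, adjusted p = 0.673). As in any bulk measurement, fewer cells of a type and less RNA per cell cannot be told apart.

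Of the genes tested, 8343 (61.7%) differed between lung and spleen PSGL1hi cells. In lung, 4104 (30.4%) were higher and 4239 (31.4%) lower, and the median difference over all genes was -0.03. Past a 1.5-fold change, tested as a threshold, 3639 genes (26.9%) remained, 1880 (13.9%) higher and 1759 (13%) lower. The libraries of the tissues did not overlap in 11030 genes (81.6%). Between lung and liver PSGL1hi cells, within one library series, 5309 genes (39.3%) differed, with 20.3% higher in lung and 19% lower. Past 1.5-fold, 1170 genes (8.66%) remained against liver, 6.18% higher and 2.48% lower. Counts of members called, below, are to be read against these shares, and list medians against the median of all genes.

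**Figure D1:**
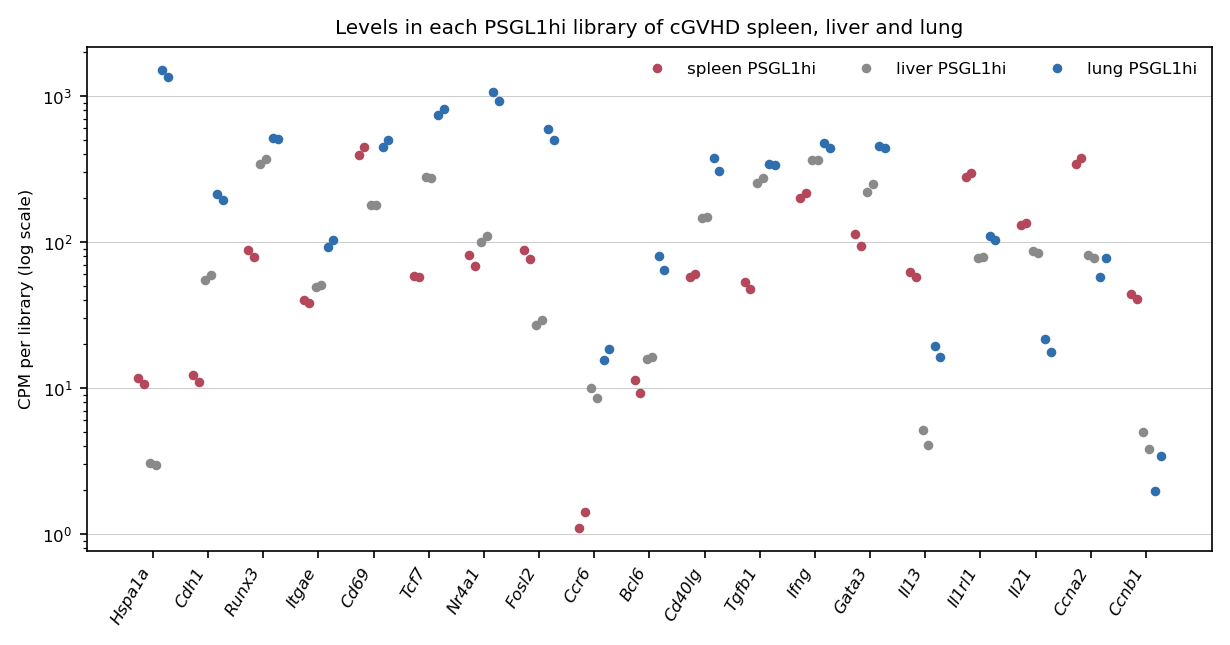
CPM of 19 genes (log axis) in each PSGL1hi library of cGVHD, 2 libraries each from spleen, liver and lung, with one point per library. Hspa1a stood at 1512 and 1345 CPM in lung and at 11.7 and 10.7 CPM in spleen, while Ccnb1 stood at 1.96 and 3.41 CPM in lung and 44.2 and 40.6 CPM in spleen.

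Other cell types were represented in both tissues, at levels that moved with tissue. The 18 myeloid markers summed to 871 to 1073 CPM in the lung libraries, 635 to 665 CPM in spleen and 117 to 155 CPM in liver. Of the 18 tested, 5 were higher in lung and 7 lower. Lyz2, the lysozyme of macrophages, stood at 32.4 and 41.6 CPM in spleen and 564 and 701 CPM in lung, and Cd14, an endotoxin coreceptor of monocytes, at 0.909 and 1.23 CPM in spleen and 30.6 and 34.99 CPM in lung. Both lung libraries exceeded both spleen libraries for these genes. By contrast, Csf1r, the growth factor receptor of macrophages, stood at 73.5 and 75.2 CPM in spleen and 17.2 and 21.4 CPM in lung, and the complement gene C1qa at 69.9 and 74.2 CPM in spleen and 17.8 and 18.3 CPM in lung. Without spleen replicate 2, 3 myeloid markers were called higher and 7 lower.

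Markers of alveolar macrophages also went both ways. The 9 alveolar macrophage markers with an entry summed to 397 to 541 CPM in lung and 103 to 112 CPM in spleen, and most of that sum was Chil3, a chitinase-like protein, at 369 and 508 CPM in lung and 79.6 and 86.2 CPM in spleen. Plet1, another marker of that cell, stood at 15.2 and 18.6 CPM in lung and 0.431 and 0.308 CPM in spleen. Car4 was at 0 in both spleen libraries and at 0.872 and 0.981 CPM in lung. Of this list 3 of 8 members tested were higher and 3 lower, among the latter the scavenger receptor gene Marco, at 2.25 and 1.94 CPM in spleen and 0 and 0.235 CPM in lung.

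Erythroid and platelet markers were found in spleen and were close to the detection limit in lung. Their sum was 81.04 to 82.9 CPM in spleen, 0.863 to 1.44 CPM in lung and 1.28 to 1.95 CPM in liver. The globin genes of the list had no counts in any PSGL1hi library, spleen included, so these sums hold no globin. All 7 of 7 markers tested were lower in lung. Slc4a1, the anion exchanger of red cells, stood at 41.8 and 38.5 CPM in spleen and was not detected in lung, at least 323-fold lower. B and plasma cell markers summed to 51.1 to 57.5 CPM in spleen and 8.51 to 9.38 CPM in lung. Most of the spleen sum was Jchain, the joining chain of secreted antibodies, at 41.6 and 49.9 CPM in spleen and 1.05 and 0.275 CPM in lung. Of 8 B and plasma cell markers tested, 1 was higher and 3 were lower. Cd79a had too few counts to be tested. Cd8a, the coreceptor of CD8 T cells, stood at 48.3 and 47.02 CPM in spleen, 12.4 and 13.4 CPM in lung and 95.5 and 97.6 CPM in liver, and both CD8 markers were lower in lung than in spleen.

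Transcripts of lung tissue itself were present in lung libraries in small amounts. The club cell secretoglobin Scgb1a1 stood at 38.2 and 31.5 CPM in lung and at 0 in both spleen libraries, at least 253-fold higher. Surfactant protein C, from Sftpc, stood at 2.84 and 1.14 CPM in lung and at 0 in spleen. The 18 epithelial markers summed to 71.5 to 84.3 CPM in lung and 43.8 to 47.98 CPM in spleen, and 9 of them were at 0 in spleen. Of 14 tested, 7 were higher and 3 lower, against 3 and 3 by DESeq2. Dendritic cell markers, among them the antigen presentation genes H2-Aa, H2-Ab1 and Cd74, summed to 816 to 824 CPM in spleen and 512 to 628 CPM in lung. Of these markers, 6 of 9 were lower in lung and 0 higher. Endothelial and stromal markers summed to 73.5 to 77.6 CPM in spleen and 164 CPM in both lung libraries, with 8 of 14 higher and 3 lower. NK cell markers, several of which T cells also express, summed to 282 to 306 CPM in spleen and 502 to 515 CPM in lung, with 4 of 6 higher, or 2 without lung replicate 2 or without spleen replicate 1. The 3 markers with an entry of NKT and gamma delta T cells summed to less than 1 CPM in every library, with none of 2 tested called. Mast cell and basophil markers summed to 9.76 to 11.3 CPM in spleen and 3.02 to 5.15 CPM in lung, and all 3 tested were lower in lung.

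**Figure D2:**
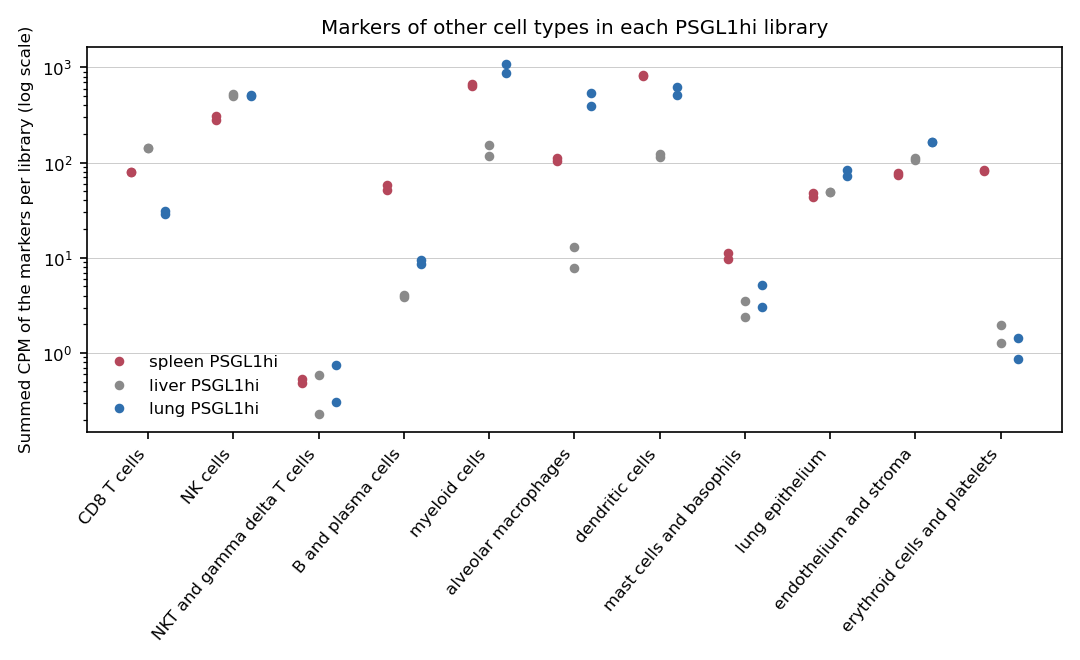
Summed CPM (log axis) of 11 marker lists of other cell types in each PSGL1hi library of spleen, liver and lung, with one point per library. Erythroid markers lay between 81.04 and 82.9 CPM in spleen and at most at 1.95 CPM in lung and liver, and alveolar macrophage markers between 397 and 541 CPM in lung.

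Several of the genes with the largest differences are known from such cells. Among the 10 leading genes higher in lung, of those above the detection limit in spleen, were the macrophage genes Plet1, Mmp12, Olr1 and Cd14. Mmp12, an elastase of macrophages, stood at 1.77 and 2.25 CPM in spleen and 61.98 and 86.8 CPM in lung, 5.203 ± 0.24 higher. Olr1, a receptor for oxidised lipoprotein, was higher by 4.97 ± 0.30. Inhba, the activin A subunit, rose from 0.574 and 0.484 CPM to 12.9 and 13.1 CPM. Among genes with at least 10 CPM in spleen and above the detection limit in lung, the 10 leading genes lower in lung were Slc40a1, Ccl24, Fcna, Jchain, Ccl8, Car2, Vcam1, Retnla, Gpt2 and Tmcc2. Slc40a1, the iron exporter ferroportin, stood at 47.2 and 47.98 CPM in spleen and 0.567 and 0.432 CPM in lung, and Vcam1, a ligand of integrin alpha 4 beta 1, at 126 and 128 CPM in spleen and 5.89 and 6.75 CPM in lung. Among genes with no counts in spleen, Igfbp5 was at least 82.97-fold, the neutrophil attractant Cxcl1 at least 75.4-fold and podoplanin, from Pdpn, at least 52.1-fold higher in lung. Chil1, with few counts in spleen, stood at 0.0957 and 0.08804 CPM there and 8.33 and 9.34 CPM in lung. Genes with few counts in lung included Siglech, a marker of plasmacytoid dendritic cells, at 23.2 and 24.5 CPM in spleen and 0.0872 and 0.0392 CPM in lung. The macrophage gene Cd5l stood at 22.1 and 22.7 CPM in spleen and 0.0872 and 0.0785 CPM in lung, and Alas2, of haem synthesis, at 22.4 and 21.3 CPM in spleen and 0.131 and 0.0392 CPM in lung. Apol11b stood at 15.2 and 16.6 CPM in spleen and 0.0872 and 0.0785 CPM in lung. The part of other cells in these differences was not tested.

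A core circadian repressor also stood out among the leading genes. Nr1d1, which encodes REV-ERB alpha, stood at 0.526 and 0.704 CPM in spleen, 10.3 and 10.5 CPM in liver and 25.7 and 26.2 CPM in lung. The groups did not overlap, and the lung-spleen difference was 5.38 ± 0.28 (adjusted p = 1.61e-13) against 1.31 ± 0.19 from liver. Ppp2r2c, a regulatory subunit of protein phosphatase 2A, showed the same order, with 2.296 and 1.67 CPM in spleen, 26.7 and 29.3 CPM in liver and 69.97 and 67.5 CPM in lung.

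Inducible heat shock chaperones led the genes higher in lung among those with at least 10 CPM there and above the detection limit in spleen. Hspa1a and Hspa1b encode the inducible HSP70, which refolds damaged proteins, and their reads can match either copy. Hspa1a stood at 11.7 and 10.7 CPM in spleen, 3.08 and 2.96 CPM in liver and 1512 and 1345 CPM in lung. Hspa1b stood at 28.6 and 25.97 CPM in spleen, 7.56 and 7.02 CPM in liver and 2136 and 1929 CPM in lung. For both genes every lung library exceeded every spleen and liver library. Hspa1a was higher than in spleen by 6.997 ± 0.11 (adjusted p = 1.21e-22) and higher than in liver by 8.89 ± 0.12 (adjusted p = 1.18e-23).

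Of the 18 chaperone genes tested, 13 were higher in lung and 2 lower, with a median of 0.99. Against liver, 16 were higher and 0 lower. Dnajb1, the HSP40 partner of HSP70, rose from 189 and 182 CPM in spleen to 1474 and 1211 CPM in lung (2.86 ± 0.09). Bag3, a cochaperone of selective autophagy, was higher by 2.93 ± 0.14 and Hsph1, the HSP110 exchange factor, by 2.76 ± 0.10. Hsp90ab1, the abundant constitutive HSP90, rose from 1256 and 1067 to 4039 and 3635 CPM. The small heat shock protein gene Hspb1 was at 0 in both spleen and both liver libraries and at 1.61 and 1.41 CPM in lung, at least 10.98-fold higher than in spleen. The lower members were Chordc1 (-0.70 ± 0.10) and Hspa4l (-0.60 ± 0.10), and the mitochondrial Hspe1 was at 34.4 and 40.4 CPM in spleen and 37.99 and 36.5 CPM in lung.

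Promoters of the chaperone genes Hspa1a, Hspa1b and Hsph1 are shown because they hold a short form of the binding site of heat shock factor, the activator of these genes. Bag3 and Dnajb1, which differed more than Hsph1, held no such site in the windows searched. Sequences are the 250 bases before the annotated start, read 5' to 3', from RefSeq on GRCm38.p6. That table held 20 promoters for 15 of the 18 chaperone genes. Capitals mark the short heat shock element GAANNTTC or TTCNNGAA, searched on both strands, which these letters cover since each is its own reverse complement. The windows are chr17:34972157-34972406 for Hspa1a, chr17:34959239-34959488 for Hspa1b and chr5:149636337-149636586 for Hsph1, all on the minus strand.
Hspa1a: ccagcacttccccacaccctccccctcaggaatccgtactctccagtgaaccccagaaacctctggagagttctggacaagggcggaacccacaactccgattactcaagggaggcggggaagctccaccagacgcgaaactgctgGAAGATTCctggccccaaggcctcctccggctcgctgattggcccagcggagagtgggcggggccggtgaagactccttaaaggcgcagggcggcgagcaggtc
Hspa1b: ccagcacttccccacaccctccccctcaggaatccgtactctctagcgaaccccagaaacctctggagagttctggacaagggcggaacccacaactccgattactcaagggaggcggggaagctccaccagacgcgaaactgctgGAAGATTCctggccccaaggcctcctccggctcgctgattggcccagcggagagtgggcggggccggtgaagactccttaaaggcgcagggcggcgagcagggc
Hsph1: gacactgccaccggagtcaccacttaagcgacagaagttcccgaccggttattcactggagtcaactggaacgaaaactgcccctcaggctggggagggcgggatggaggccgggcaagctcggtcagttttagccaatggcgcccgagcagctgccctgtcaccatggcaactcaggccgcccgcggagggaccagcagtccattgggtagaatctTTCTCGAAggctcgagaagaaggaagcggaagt
The Hspa1a and Hspa1b windows differ at 3 of 250 bases, and each holds the motif once, starting 104 bases before the start. In Hsph1 it starts 33 bases before the start. The short element was found in 9 of the 20 chaperone promoters (45%). These include 2 of Hsph1 and the near-identical windows of Hspa1a and Hspa1b, and are not independent. The element was found in 10.4% of the promoters of genes tested and in 12.8% of all 32851 promoters. It was searched after the longer element GAANNTTCNNGAA or TTCNNGAANNTTC, which was found in 2 of the 20, those of Hspd1 and Hspe1, and in 0.466% of all promoters. Hspd1, the mitochondrial HSP60, was higher in lung by 0.41 ± 0.09, against 6.997 for Hspa1a. A match is a description of the letters and shows no binding.

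Immediate early genes, which cells switch on rapidly and without new protein synthesis when stimulated, were mostly higher in lung. Of 27 tested, 22 were higher and 2 lower, with a median of 1.25. Against liver, 22 were higher and 2 lower. Nr4a1, an orphan receptor induced by T cell receptor signals, stood at 81.9 and 68.4 CPM in spleen, 99.9 and 109.6 CPM in liver and 1061 and 926 CPM in lung, 3.73 ± 0.10 higher than in spleen (adjusted p = 3.38e-18). Its relative Nr4a3 was higher by 3.21 ± 0.17. Both lung libraries lay far above the other PSGL1hi libraries for each.

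Members of the AP-1 family differed in where liver stood. Fosl2, a FOS relative, stood at 87.5 and 76.9 CPM in spleen, 27.1 and 29.3 CPM in liver and 596 and 497 CPM in lung, so that liver was below spleen. Jun stood at 185 and 157 CPM in spleen, 422 and 428 CPM in liver and 991 and 1005 CPM in lung, with liver between. Egr1, a zinc finger activator, was higher in lung by 2.75 ± 0.14 and did not pass the test against liver (0.15 ± 0.13, adjusted p = 0.383). Fos itself differed little, at 665 and 669 CPM in spleen and 801 and 912 CPM in lung (0.36 ± 0.10, adjusted p = 0.00347), and did not pass without lung replicate 2 (0.28, adjusted p = 0.0574).

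The immediate early members that were lower were Egr2 and Egr3, zinc finger genes linked to T cell receptor signals and restraint. Egr2 stood at 66.6 and 68.1 CPM in spleen, 66.6 and 63.6 CPM in liver and 18.5 and 18.3 CPM in lung, -1.87 ± 0.10. Egr3 was lower by a smaller step (-0.54 ± 0.12). Of the remaining members, Ier3 and Ier5 did not pass, at 0.18 and 0.04, nor did Fosl1, at 0.478 and 0.528 CPM in spleen and 0.9596 and 1.098 CPM in lung.

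Dual specificity phosphatases and antiproliferative members were among those higher. Dusp1, which switches off MAP kinases, rose from 724 and 636 to 1395 and 1477 CPM, and Btg2 from 647 and 606 to 784 and 780.4 CPM. Their promoters are shown because they held the cAMP response element TGACGTCA, a site of the CREB factors that induce such genes. The element is its own reverse complement and is marked in capitals. Nr4a1, Nr4a3, Fosl2, Jun and Zfp36, which differed more than Dusp1 and Btg2, held no such element in the windows searched. The windows, chosen as above, are chr17:26508473-26508722 for Dusp1 and chr1:134079156-134079405 for Btg2, both on the minus strand.
Dusp1: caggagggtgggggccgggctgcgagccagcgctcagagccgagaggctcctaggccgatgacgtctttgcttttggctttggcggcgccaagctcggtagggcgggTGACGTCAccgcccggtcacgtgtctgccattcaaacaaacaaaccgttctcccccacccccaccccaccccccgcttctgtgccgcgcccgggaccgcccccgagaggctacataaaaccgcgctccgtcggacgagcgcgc
Btg2: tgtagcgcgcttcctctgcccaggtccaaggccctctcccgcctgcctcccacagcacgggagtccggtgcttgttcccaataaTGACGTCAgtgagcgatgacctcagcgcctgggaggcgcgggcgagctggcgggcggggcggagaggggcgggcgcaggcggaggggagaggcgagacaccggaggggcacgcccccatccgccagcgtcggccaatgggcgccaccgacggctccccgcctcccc
The element starts 143 bases before the start of Dusp1 and 166 before that of Btg2. It was found in 3 of the 26 promoters that the table held for 22 of the 27 genes (11.5%), the other being that of Ppp1r15a, in 2.49% of the promoters of genes tested and in 1.55% of all promoters. The AP-1 site, TGACTCA or TGAGTCA on either strand, was found in 0 of these 26, in 3.29% of the promoters of genes tested and in 4.46% of all promoters.

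NF-kappaB subunits and the inhibitors it induces were higher in 14 of 15 members and lower in none, with a median of 0.73. Against liver, 13 were higher and 1 lower. Tnfaip3, the ubiquitin editing enzyme A20 that ends NF-kappaB signals, stood at 1976 and 1873 CPM in spleen, 685 and 761 CPM in liver and 5966 and 6032 CPM in lung. Lung was the highest and liver the lowest of the 3 tissues, and the lung-spleen difference was 1.64 ± 0.08 (adjusted p = 5.73e-14). Rel, the c-Rel subunit, was higher by 1.74 ± 0.11 and the adaptor gene Tnip1 by 1.39 ± 0.09. Nfkb2 was the member that did not pass, at 0.02 ± 0.08, and it was lower with a correction for GC content and length (-0.19, adjusted p = 0.00498). The RNA decay factor Zfp36, itself an immediate early gene, rose from 201 and 177 to 887 and 946 CPM.

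**Figure D3:**
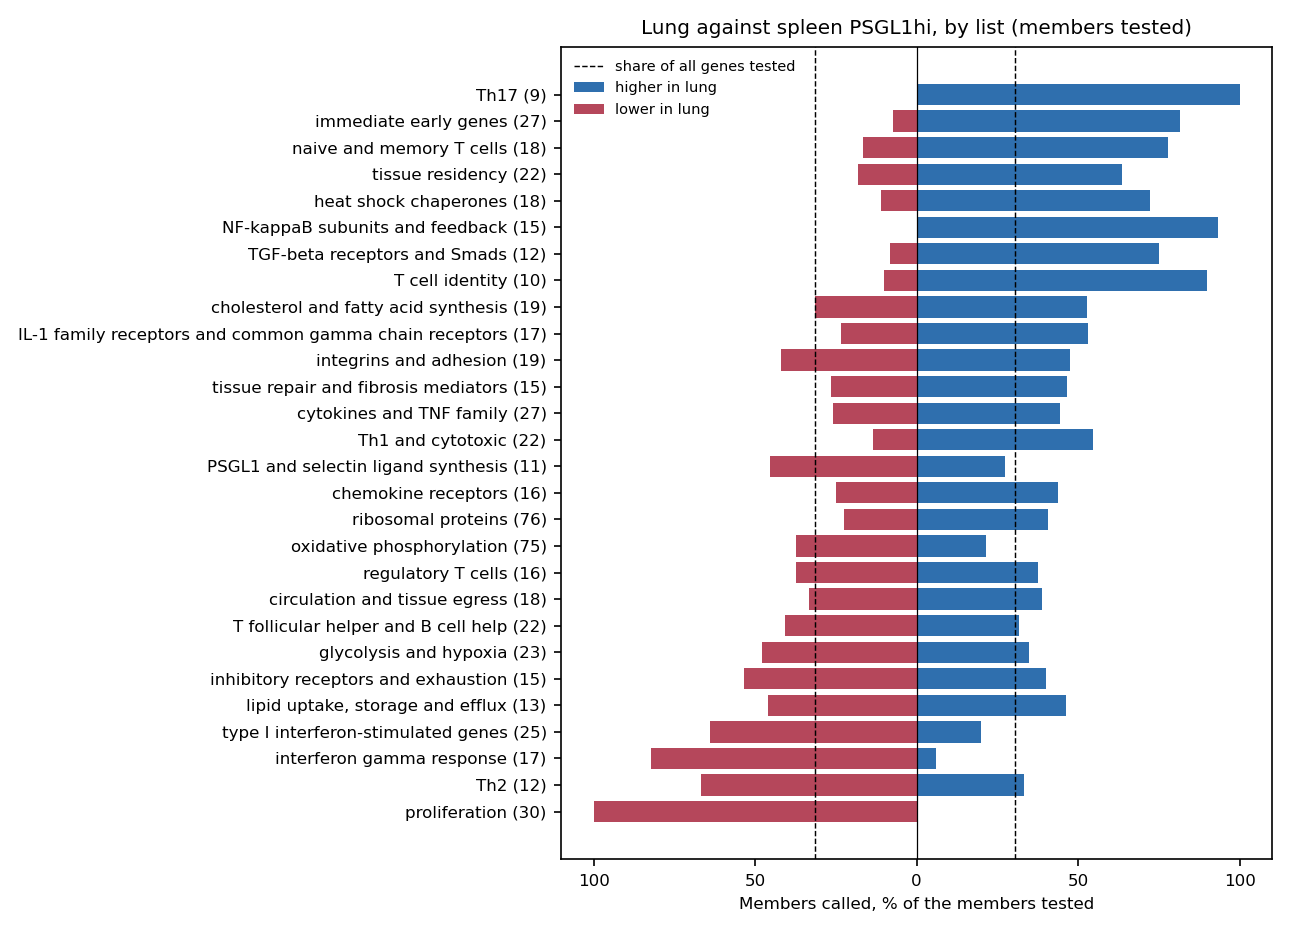
Share of the tested members of each of 28 gene lists called higher (right) or lower (left) in lung than in spleen PSGL1hi cells by edgeR's quasi-likelihood test, in percent, ordered by the median difference of the list, with the number tested in brackets. Dashed lines mark the shares over all genes, 30.4% higher and 31.4% lower. All 9 Th17 members were higher and all 30 proliferation members lower.

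Genes of naive and memory T cells were higher in lung. Of 18 tested, 14 were higher and 3 lower, with a median of 1.17. Against liver, 14 were higher and 3 lower. Tcf7 encodes TCF1, the factor of naive, memory and self-renewing T cells, and stood at 58.2 and 57.8 CPM in spleen, 278 and 275 CPM in liver and 746 and 817 CPM in lung. The libraries of the 3 tissues did not overlap, with lung the highest, and Tcf7 was higher than in spleen by 3.75 ± 0.08 (adjusted p = 1.26e-19) and than in liver by 1.498 ± 0.07. Its partner Lef1 rose from 68.7 and 64.3 to 158 and 158 CPM, and the survival receptor Il7r from 378 and 416 to 922 and 972 CPM.

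Foxo1, which drives homing and quiescence genes, was higher by 1.904 ± 0.10, and Bach2, a repressor of effector genes, by 1.74 ± 0.16. Ccr7, the receptor that leads to lymph nodes, stood at 13.1 and 12.3 CPM in spleen, 2.76 and 4.32 CPM in liver and 36.8 and 38.99 CPM in lung. Among the lower members were Myb (-1.08 ± 0.15) and the costimulatory receptor gene Cd27 (-0.79 ± 0.07).

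Tissue residency genes, which mark T cells that stay in a tissue, were higher in 14 of 22 members and lower in 4, with a median of 1.12. Against liver, 13 were higher and 6 lower. Cdh1, encoding E-cadherin, stood at 12.2 and 10.96 CPM in spleen, 54.9 and 59.2 CPM in liver and 213 and 193 CPM in lung. Lung exceeded liver and liver exceeded spleen, without overlap, and the lung-spleen difference was 4.13 ± 0.11 (adjusted p = 3.64e-18). Itgae, the CD103 integrin that binds E-cadherin, stood at 40.3 and 38.3 CPM in spleen and 93.1 and 103 CPM in lung, 1.32 ± 0.09 higher. Itga1, the collagen-binding CD49a integrin, rose from 53.96 and 50.5 to 150.4 and 139.8 CPM and did not pass against liver (0.26 ± 0.11, adjusted p = 0.0615).

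Among the regulators in this list, Runx3 and Bhlhe40 were higher by the test, and Zfp683, which encodes the residency factor Hobit, was not analysed here. Runx3 stood at 87.9 and 78.7 CPM in spleen, 343 and 370.3 CPM in liver and 513 and 505 CPM in lung, 2.61 ± 0.08 higher than in spleen (adjusted p = 9.02e-18). Bhlhe40, which supports cytokine output and mitochondrial fitness of resident cells, rose from 1137 and 1036 to 3762 and 3593 CPM with liver at 1159 and 1258 CPM. Rgs2, a brake on G protein signals, was higher by 2.15 ± 0.08 and Qpct, which cyclises N-terminal glutamine of chemokines, by 3.43 ± 0.23. Prdm1, the repressor BLIMP1, stood at 153 and 144 CPM in spleen and 163 and 188 CPM in lung (0.24 ± 0.09, adjusted p = 0.0278), a call lost without lung replicate 2 (0.15, adjusted p = 0.279) or spleen replicate 2 (0.20, adjusted p = 0.151).

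Common markers of residency were not all higher. Cd69, which holds cells in tissue by pulling S1PR1 from the surface, stood at 396 and 445 CPM in spleen, 451 and 499 CPM in lung and 179.5 and 179 CPM in liver. The lung libraries were just above those of spleen and the difference did not pass (0.17 ± 0.09, adjusted p = 0.101), except without lung replicate 1 (0.27, adjusted p = 0.0447), without the filter on low counts (0.18, adjusted p = 0.0422) or with a correction for GC content and length (0.36, adjusted p = 0.000162). Liver was lower than both. Cxcr6 overlapped between the tissues, at 741 and 839 CPM in spleen and 865 and 766 CPM in lung, and passed only with that correction (0.15, adjusted p = 0.0214). Hpgds, a prostaglandin D synthase (-2.19 ± 0.35), Dusp6 (-0.65 ± 0.08), the ATP receptor gene P2rx7 (-0.40 ± 0.07) and Inpp4b (-0.22 ± 0.08) were lower in lung. The call of Inpp4b was lost without either lung library or without spleen replicate 2, and its sign turned with a correction for GC content and length (0.05, adjusted p = 0.297).

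Genes of circulation and egress gave a mixed picture, with 7 of 18 higher, 6 lower and a median of -0.10. Against liver, 12 were higher and 1 lower. S1pr1, the receptor that leads T cells out of tissue, stood at 254 and 245 CPM in spleen, 153 and 158 CPM in liver and 404 and 483 CPM in lung. It was higher in lung than in either tissue, by 0.83 ± 0.09 from spleen (adjusted p = 2.54e-08) and 1.51 ± 0.09 from liver. Klf2, the factor that switches on S1pr1, rose from 122 and 111 to 371 and 398 CPM with liver at 159 and 163 CPM. Klrg1, an inhibitory receptor of circulating effector cells, was lower (-0.52 ± 0.11), and Cx3cr1 overlapped between the tissues at 62.8 and 59.6 CPM in spleen and 52.5 and 64.4 CPM in lung.

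Chemokine receptors were higher in 7 of 16 members and lower in 4, or 8 and 2 without lung replicate 1. Cxcr4, which retains cells where CXCL12 is made, stood at 232 and 233 CPM in spleen, 92.8 and 90.1 CPM in liver and 857 and 847 CPM in lung, 1.88 ± 0.07 higher than in spleen (adjusted p = 1.11e-15). Ccr6, found on Th17 cells, rose from 1.1003 and 1.41 to 15.5 and 18.5 CPM with liver at 9.999 and 8.56 CPM, and Ccr4, a receptor of lung and skin homing, from 29.3 and 28.04 to 76.7 and 82.5 CPM. Ccr8 was higher by 1.32 ± 0.10. The Th1 receptor Cxcr3 was at 314 and 313 CPM in spleen and 298 and 305 CPM in lung and did not pass (adjusted p = 0.513), except with a correction for GC content and length (-0.17, adjusted p = 0.00819).

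Integrin and adhesion genes divided almost evenly, with 9 of 19 higher and 8 lower, or 10 and 5 without lung replicate 1. Cd44, the hyaluronan receptor, rose from 445 and 467 to 1360.1 and 1342 CPM, and Itgal, the LFA-1 alpha chain, from 734 and 622 to 1896 and 1944 CPM with liver higher still at 2729.7 and 2838 CPM. Itga4, the alpha 4 chain that binds VCAM1, was lower (-0.55 ± 0.09), as was Spn, the sialophorin CD43 (-0.61 ± 0.06). Enzymes that build the selectin ligand on PSGL1 also split. Fut7, the fucosyltransferase needed for selectin binding, was lower (-1.47 ± 0.21), at 9.81 and 9.95 CPM in spleen and 3.62 and 3.53 CPM in lung, and B4galt1, which adds galactose, was higher (1.14 ± 0.07). Of this list 3 of 11 were higher and 5 lower.

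**Figure D4:**
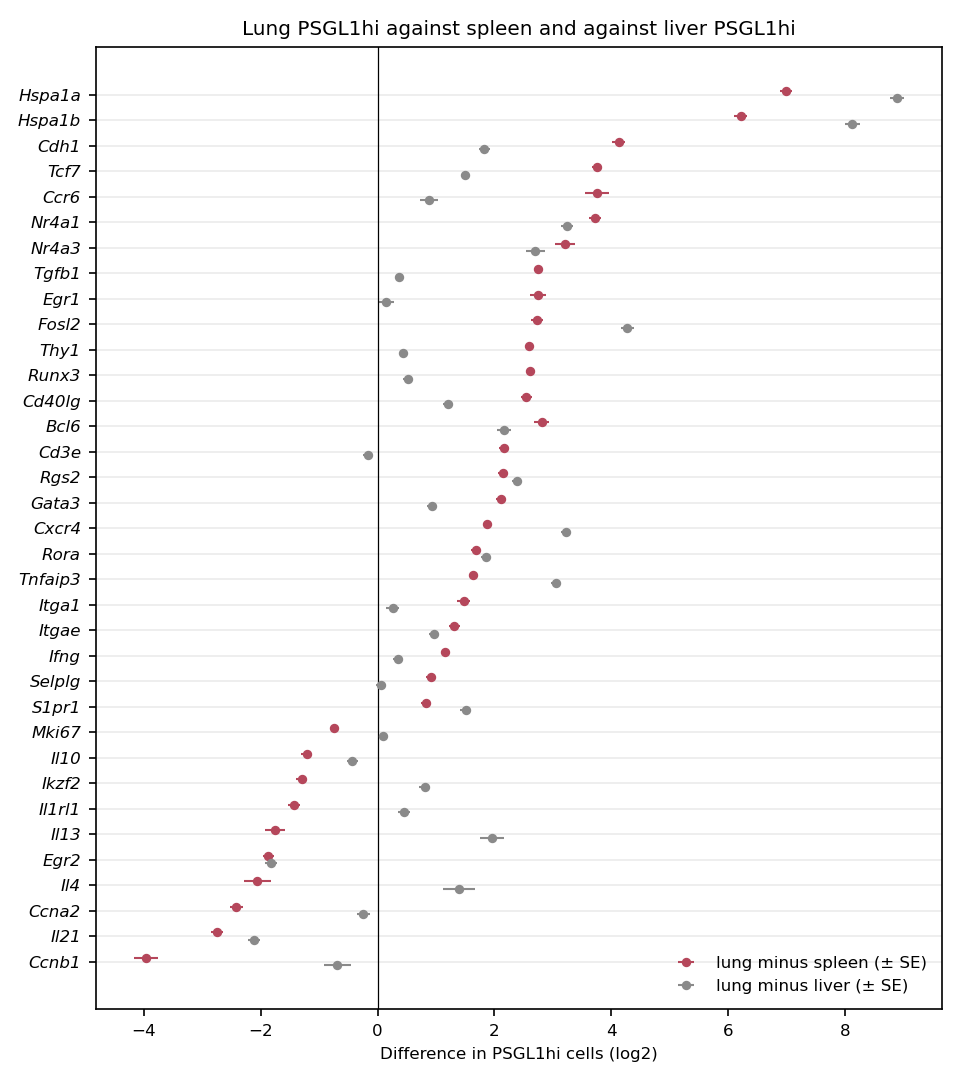
Difference on the log2 scale ± standard error in PSGL1hi cells, lung minus spleen and lung minus liver, for 35 genes, from the edgeR fit over all 14 libraries. The pairs of differences share the lung libraries. Hspa1a and Nr4a1 were higher in lung than in both tissues, Cd3e lay near 0 against liver, and Il13 was lower than in spleen and higher than in liver.

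All tested Th17 genes were higher in lung, 9 of 9, with a median of 3.04, though several stood at low levels. Against liver, 5 were higher and 0 lower. Il17a, the lineage cytokine, stood at 0.0478 and 0.352 CPM in spleen and 6.28 and 5.92 CPM in lung, with liver at 1.58 and 1.79 CPM (lung-spleen difference 4.85 ± 0.57, adjusted p = 1.55e-07). Il22, a cytokine of barrier repair, stood at 0.0478 and 0.132 CPM in spleen, which is within the detection limit, and at 1.92 and 2.71 CPM in lung, with liver at 0.633 and 0.731 CPM.

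Receptors of the same program were better measured. Rora, a nuclear receptor gene of the lineage and also a clock gene, rose from 306 and 307 to 999 and 963 CPM with liver at 268 and 277 CPM. Il23r rose from 1.005 and 1.41 to 11.996 and 8.08 CPM with liver at 3.94 and 4.57 CPM, and Il1r1 from 7.94 and 8.28 to 27.04 and 25.7 CPM with liver at 25.3 and 24.7 CPM. Tmem176a and Tmem176b, neighbouring genes of ion channels found in Th17 cells, were higher by 3.13 ± 0.17 and 2.68 ± 0.12. The part of other cell types in these differences was not tested. Il17f and Ccl20 had too few counts to be tested.

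Th1 and cytotoxic genes were higher in 12 of 22 members and lower in 3, with a median of 0.18. Against liver, 10 were higher and 9 lower. Ifng stood at 199 and 216 CPM in spleen, 363 and 362 CPM in liver and 479 and 442 CPM in lung, 1.15 ± 0.07 higher than in spleen (adjusted p = 7.58e-12). Tbx21, encoding T-bet, rose from 134 and 118 to 237 and 188 CPM, and Il12rb2, the signalling chain of the IL-12 receptor, by 1.62 ± 0.11. The chemokine gene Ccl5 was the most different member, from 442 and 364 CPM in spleen to 1356 and 1599.9 CPM in lung, with liver above both at 2927 and 3004 CPM.

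Among the cytotoxic members Gzmb and Prf1 were lower, and Gzma and Gzmk did not pass. Gzmb, granzyme B, stood at 319.9 and 311 CPM in spleen, 166 and 213 CPM in lung and 456 and 452 CPM in liver. Both lung libraries were below all spleen and liver libraries, -0.73 ± 0.13 from spleen (adjusted p = 4.88e-05). Perforin, from Prf1, was lower by a similar step (-0.59 ± 0.08), as was the chemokine gene Ccl4 (-0.55 ± 0.10). The differences of Gzma and Gzmk were 0.10 and 0.03, and Gzma passed without lung replicate 1 (0.48, adjusted p = 0.0407).

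Th2 genes were mostly lower in lung while the Th2 factor was higher. Of 12 tested, 8 were lower and 4 higher, with a median of -1.27. Against liver, 9 were higher and 1 lower. Il13, a cytokine of mucus and fibrosis, stood at 62.05 and 57.8 CPM in spleen, 5.16 and 4.06 CPM in liver and 19.2 and 16.4 CPM in lung. Lung lay between spleen and liver without overlap, with a difference of -1.75 ± 0.17 from spleen (adjusted p = 1.01e-08) and 1.96 ± 0.20 from liver (adjusted p = 7.26e-08). Il4 and Il5 had the same order, with -2.06 ± 0.23 and -1.25 ± 0.23 against spleen. Il1rl1, the IL-33 receptor, fell from 279 and 298 to 111 and 104 CPM. Rnf128, the ubiquitin ligase GRAIL of anergic T cells, fell from 56.3 and 59.2 to 16.7 and 16.8 CPM.

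The 4 higher members were Gata3, Ccr4, Ccr8 and Areg. Gata3, the lineage factor, stood at 114 and 94.3 CPM in spleen, 222 and 248 CPM in liver and 456 and 442 CPM in lung, 2.11 ± 0.09 higher than in spleen (adjusted p = 3.92e-15). Areg, the repair factor amphiregulin, stood at 29.1 and 29.01 CPM in spleen, 2.04 and 2.41 CPM in liver and 42.4 and 37.3 CPM in lung. Lung exceeded spleen by 0.46 ± 0.12 and liver by 4.15 ± 0.16.

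Follicular helper genes were higher in 7 and lower in 9 of 22 members. Against liver, 10 were higher and 4 lower. Il21, the cytokine with which helper cells drive B cells, stood at 130.3 and 135 CPM in spleen, 86.8 and 83.9 CPM in liver and 21.8 and 17.7 CPM in lung. Lung was the lowest of the 3 tissues, -2.75 ± 0.10 from spleen (adjusted p = 4.04e-16). The lineage repressor Bcl6 went the other way, from 11.3 and 9.24 to 79.7 and 64.3 CPM (2.81 ± 0.13), and so did the help ligand Cd40lg, from 57.1 and 59.9 to 377 and 308 CPM. Icos, a costimulatory receptor, was higher by 1.23 ± 0.08 and Tox2 by 2.42 ± 0.12. Cxcr5, the receptor for the B cell follicle, was at 16.1 and 16.02 CPM in spleen and 16.1 and 19.8 CPM in lung and did not pass (0.16 ± 0.11), except without lung replicate 1 (0.33, adjusted p = 0.0242). Batf, Btla and Angptl2 were lower, the last from 52.5 and 51.8 to 19.98 and 19.4 CPM.

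Regulatory T cell genes were balanced, 6 higher and 6 lower of 16. Against liver, 10 were higher and 3 lower. Foxp3, the defining factor, rose from 21.002 and 16.9 to 54.05 and 52.8 CPM, with liver at 19.3 and 22.5 CPM, a lung-spleen difference of 1.49 ± 0.12 (adjusted p = 2.13e-10). Lrrc32, which docks latent TGF-beta on these cells, was higher by 1.71 ± 0.17. Ikzf2, encoding Helios, fell from 211 and 222 to 90.8 and 85.6 CPM, and the suppressive cytokine Il10 from 94.01 and 110.4 to 42.4 and 45.8 CPM. Both lung libraries exceeded all spleen and liver libraries for Foxp3, at a level far below that of Cd4.

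Inhibitory receptors and exhaustion genes were higher in 6 and lower in 8 of 15 members, with a median of -0.34. Against liver, 4 were higher and 8 lower. Pdcd1, encoding PD-1, was at 413 and 402 CPM in spleen and 458 and 423 CPM in lung and did not pass (adjusted p = 0.192). Tigit rose from 133 and 123 to 295 and 294 CPM, and Nt5e, the adenosine-making CD73, from 34.9 and 40.9 to 91.3 and 85.6 CPM. Cd160 fell from 60.3 and 66.7 to 23.6 and 26.8 CPM, and Lag3 from 175 and 162 to 136 and 129 CPM. Tox was higher by 0.81 ± 0.07.

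Cytokine and TNF family genes were higher in 12 and lower in 7 of 27 members. Against liver, 16 were higher and 8 lower. Tgfb1, the chief growth factor of fibrosis, stood at 53.6 and 47.4 CPM in spleen, 253 and 275 CPM in liver and 344 and 337 CPM in lung. Liver and lung were both far above spleen, and the lung-spleen difference was 2.75 ± 0.08 (adjusted p = 1.11e-17) against 0.37 ± 0.07 from liver. Furin, the protease that activates it, rose from 143 and 88.1 to 574 and 534 CPM. Tnf and Lta were higher by 1.53 ± 0.11 and 2.497 ± 0.14, and Csf2, the growth factor GM-CSF, rose from 20.95 and 23.1 to 45.5 and 37.3 CPM. Spp1, osteopontin, a product of macrophages as well as T cells, was higher by 1.77 ± 0.11. The repair and fibrosis list had 7 of 15 higher and 4 lower, or 7 and 2 without spleen replicate 1.

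TGF-beta receptors and Smads were higher in 9 of 12 members, with a median of 0.72. The inhibitory Smad7 rose from 104 and 80.4 to 261 and 242 CPM, and Ski, another brake, by 1.54 ± 0.10. The coreceptor gene Tgfbr3 was higher by 1.68 ± 0.11, and Tgfbr2 by 0.70 ± 0.07. Tgfbr1, the signalling receptor, was the single lower member (-0.72 ± 0.09). Of the receptors for IL-1 family and common gamma chain cytokines, 9 of 17 were higher and 4 lower. Il2rg, the common gamma chain, rose from 505 and 489 to 1144 and 1172 CPM, and Cish, a feedback inhibitor that STAT5 induces, from 129 and 100.02 to 406 and 360.1 CPM.

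T cell identity genes were higher in 9 of 10 members. Against liver, 2 were higher and 3 lower, or 1 and 1 without lung replicate 2 or liver replicate 2, and 2 and 6 without the filter on low counts or with lung and liver fitted alone. Cd3e, a signalling chain of the T cell receptor, stood at 249 and 209.98 CPM in spleen, 1082 and 1230.4 CPM in liver and 1027 and 1032 CPM in lung. Lung did not differ from liver by the test (-0.17 ± 0.08, adjusted p = 0.11), and the lung-spleen difference of 2.17 ± 0.09 contrasted with 0.51 ± 0.08 for Cd3d and 0.48 ± 0.07 for Cd3g, chains of the same complex. Thy1 rose from 456 and 400.4 to 2616 and 2550.5 CPM. Zbtb7b, the CD4 lineage factor, was the single lower member (-0.21 ± 0.08), a call lost without either lung library or without spleen replicate 1 (-0.12, adjusted p = 0.241).

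Several abundant genes outside the lists rose from spleen through liver to lung, with liver nearer to lung. Pabpc1, the poly(A) binding protein, stood at 233 and 247 CPM in spleen, 1692 and 1768 CPM in liver and 2315 and 2371 CPM in lung. S100a11, a calcium binding protein, stood at 28.2 and 28.4 CPM in spleen, 232 and 219.8 CPM in liver and 292 and 289.8 CPM in lung. Apbb1ip, an activator of integrins, stood at 41.96 and 35.4 CPM in spleen, 367 and 371 CPM in liver and 455 and 478 CPM in lung. By contrast, Vps37b, an endosomal sorting gene, stood at 59.1 and 58.6 CPM in spleen, 80.1 and 82.2 CPM in liver and 860.3 and 733 CPM in lung and Neurl3, a ubiquitin ligase gene, at 28.03 and 25.3 CPM in spleen, 66.7 and 69.8 CPM in liver and 360.1 and 309 CPM in lung, with lung alone high. The splicing factor gene Srsf1 fell from 663 and 738 CPM in spleen through 257 and 261 CPM in liver to 75.6 and 78.4 CPM in lung.

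Proliferation genes were lower in lung without exception among the 30 of 30 members tested, with a median of -1.56. Ccnb1, the mitotic cyclin B1, stood at 44.2 and 40.6 CPM in spleen, 4.98 and 3.84 CPM in liver and 1.96 and 3.41 CPM in lung, -3.96 ± 0.21 from spleen (adjusted p = 1.99e-13). Ccna2, cyclin A2, stood at 340.5 and 379 CPM in spleen, 81.8 and 77.6 CPM in liver and 57.2 and 77.4 CPM in lung. Neither lung library reached a spleen library for either gene, and for Ccna2 lung and liver did not differ by the test (adjusted p = 0.107). Top2a, which untangles replicated DNA, was lower (-2.05 ± 0.09), as were the kinase genes Aurka (-2.502 ± 0.15) and Cdk1 (-2.31 ± 0.13). Against liver, 0 members were higher and 16 lower, or 1 and 7 without lung replicate 1 and 0 and 9 without liver replicate 2. Of the 10 leading genes lower in lung at well measured levels, Knl1, Aspm, Bub1b, Kif11, Cenpf and Pclaf also serve mitosis or replication, while Dpysl2 (-2.37 ± 0.08) organises microtubules.

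The smallest differences of the list were in subunits of the replicative helicase. Mki67, the proliferation marker, stood at 989 and 1015 CPM in spleen and 552 and 639 CPM in lung (-0.75 ± 0.07), and Pcna, the sliding clamp of replication, at 175 and 199 CPM in spleen and 78.95 and 88.1 CPM in lung (-1.16 ± 0.09). Mcm2 differed by -0.33 ± 0.08 and Mcm4 by -0.22 ± 0.07, calls that were lost without lung replicate 1 (adjusted p = 0.0612 and 0.239) and, for Mcm4, without spleen replicate 1 (-0.19, adjusted p = 0.0576), while Mcm5 of the same complex differed by -1.28 ± 0.09. The spleen libraries also held the erythroid transcripts given above, at 81.04 to 82.9 CPM in sum, and the histone transcripts, and the part of either in the proliferation genes was not tested.

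Interferon response genes were mostly lower in lung. Of 25 type I interferon-stimulated genes, 16 were lower and 5 higher, with a median of -0.43. Against liver, 2 were higher and 18 lower. Ifih1, the sensor MDA5, fell from 163 and 174 to 65.9 and 66.5 CPM, and Rsad2, the antiviral protein viperin, from 26.2 and 30.2 to 8.201 and 9.93 CPM. Zbp1 and Isg20 were higher by 0.97 ± 0.09 and 0.89 ± 0.09. Isg15, a ubiquitin-like modifier, was at 11.6 and 10.4 CPM in spleen and 13.1 and 14.5 CPM in lung and did not pass (0.33 ± 0.14, adjusted p = 0.0547), except under several alternatives, such as without lung replicate 1 (0.42, adjusted p = 0.0466).

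Of 17 genes of the interferon gamma response, 14 were lower and 1 higher, while Ifng itself was higher in lung. Against liver, 1 was higher and 11 lower. Iigp1, a GTPase against intracellular microbes, fell from 113 and 131 to 24.3 and 34.9 CPM, and Irf1 from 545 and 555 to 313 and 354 CPM. Irf8, a factor that myeloid cells and activated T cells express, fell from 104 and 97.6 to 27.001 and 27.5 CPM, and Ciita, the switch of class II genes, from 21.96 and 20.4 to 1.79 and 3.77 CPM. Ciita is known from antigen-presenting cells, whose markers did not all move alike. Of 9 dendritic cell markers, 6 were lower in lung and 0 higher, and of 8 B and plasma cell markers 3 and 1. Myeloid markers went both ways, with 7 of 18 lower and 5 higher and a higher sum in lung. The part of these cells in Ciita was not tested. Cd274, encoding PD-L1, was the single higher member, from 87.6 and 93.3 CPM in spleen and 97.8 and 105 CPM in liver to 273 and 261 CPM in lung.

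Metabolic lists showed no common direction. Glycolysis and hypoxia genes were higher in 8 and lower in 11 of 23 members. Slc16a3, the lactate exporter, fell from 43.4 and 36.8 to 13.8 and 11.7 CPM and Tpi1, triosephosphate isomerase, from 211 and 234 to 78.1 and 85.9 CPM, while Pfkfb3, a stimulator of glycolysis, was higher (1.23 ± 0.08). Sterol and fatty acid synthesis genes were higher in 10 and lower in 6 of 19. Srebf2, the sterol factor, was higher by 1.48 ± 0.09, and Fasn, fatty acid synthase, was lower (-0.96 ± 0.08).

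Among lipid uptake and efflux genes, 6 were higher and 6 lower of 13. Cd36, a lipid scavenger receptor that macrophages also express, rose from 1.87 and 1.805 to 24.04 and 26.6 CPM, beside the macrophage markers given above, whose part was not tested. Abcg1, a cholesterol exporter, fell from 217 and 208 to 87.98 and 92.5 CPM. Nr1h3, the LXR alpha receptor, fell from 8.75 and 8.67 to 0.785 and 0.549 CPM. Myeloid markers went both ways, as given above, and their part in Nr1h3 was not tested either. Ribosomal protein genes were higher in 31 and lower in 17 of 76, with a median of 0.04, and oxidative phosphorylation genes in 16 and 28 of 75, with a median of -0.06.

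The lung-spleen comparison was then set against the same comparison in PSGL1lo cells, which uses none of the same libraries, although tissue and library series are confounded in both. In PSGL1lo cells 8050 genes (59.6%) differed, 29.6% higher and 30% lower in lung, and 24.4% past 1.5-fold (12.4% higher, 12% lower). Of the 4104 genes higher in lung in PSGL1hi cells, 3083 were higher in PSGL1lo cells too, which is 75.1% of the PSGL1hi and 77.1% of the PSGL1lo genes, and 110 were lower. Of the 4239 lower genes, 3098 were lower in both, 73.1% and 76.5%, and 77 were higher in PSGL1lo cells. Hspa1a had nearly the same difference in both fractions, 6.997 ± 0.11 and 6.77 ± 0.11, as did Cd3e, with 2.17 ± 0.09 and 2.02 ± 0.09, and Itgae, with 1.32 ± 0.09 and 1.41 ± 0.11.

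The difference between the fractions was tested directly, and a shift common to both fractions of a library series cancels in it. It passed for 2240 genes (16.6%), 1465 (10.8%) with the larger value in PSGL1hi cells and 775 (5.73%) with the smaller. The latter were 454 without lung PSGL1hi replicate 1, 497 without spleen PSGL1hi replicate 2, and 501 and 468 without spleen PSGL1lo replicates 1 and 2. Past a 1.5-fold difference, 294 genes (2.18%) remained, 143 (1.06%) larger and 151 (1.12%) smaller, or in all 188 leaving out spleen PSGL1hi replicate 2 and 193 leaving out replicate 1 of spleen PSGL1lo. For Tcf7 the lung-spleen difference was 3.75 ± 0.08 in PSGL1hi and 2.35 ± 0.08 in PSGL1lo cells (difference 1.401 ± 0.11, adjusted p = 1.73e-08). Tcf7 stood at 58.2 and 57.8 CPM in spleen PSGL1hi and 289 and 313 CPM in spleen PSGL1lo cells, so that the fractions were farther apart in spleen than in lung, where PSGL1lo cells had 1426 and 1644 CPM.

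Il23r and Ccr6 led the genes with the larger value in PSGL1hi cells. Il23r differed by 3.04 ± 0.27 between lung and spleen in PSGL1hi cells and by -0.18 ± 0.25 in PSGL1lo cells (difference 3.22 ± 0.37, adjusted p = 2.50e-06), and Ccr6 by 3.75 ± 0.21 and 1.34 ± 0.17 (difference 2.41 ± 0.28). In spleen, Ccr6 stood at 1.1003 and 1.41 CPM in PSGL1hi and 7.84 and 7.83 CPM in PSGL1lo cells. Its lung fractions overlapped, at 15.5 and 18.5 CPM in PSGL1hi and 17.6 and 22.25 CPM in PSGL1lo cells. Il23r was also lower in spleen PSGL1hi (1.005 and 1.41 CPM) than in spleen PSGL1lo cells (4.87 and 5.62 CPM). In lung it was higher in PSGL1hi (11.996 and 8.08 CPM) than in PSGL1lo cells (4.96 and 4.296 CPM). Rora, Cxcr4 and Icos had larger lung-spleen differences in PSGL1hi cells as well, 1.68 against 0.10, 1.88 against 0.70 and 1.23 against -0.04. For Icos, the PSGL1lo cells of lung and spleen did not differ by the test (adjusted p = 0.637). The phosphatase gene Dusp8 had a difference of 2.19 ± 0.41, the lipid flippase gene Atp8a2 of 2.39 ± 0.24 and Apol8 of 2.07 ± 0.50. For Atp8a2 most of this came from PSGL1lo cells, where it was lower in lung (-1.86 ± 0.17). Apol8 was lower in lung in both fractions, by a smaller step in PSGL1hi (-3.085 ± 0.28) than in PSGL1lo cells (-5.16 ± 0.33). In PSGL1hi cells Atp8a2 itself was called higher in lung (0.53 ± 0.16), a call lost without lung replicate 2 (0.31, adjusted p = 0.166) or spleen replicate 2 (0.43, adjusted p = 0.0828).

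Genes with the smaller value in PSGL1hi cells were led by Tppp3 (-3.44 ± 0.76), Jchain, Cd109, Nrgn and Penk. Tppp3 stood at 0.0762 and 0.134 CPM in spleen PSGL1lo cells, below the 0.215 CPM of 3 counts there. It stood at 2.93 and 5.61 CPM in lung PSGL1lo cells. The size of its difference, and so its rank, rests on a group at the detection limit. The difference of Jchain (-2.93 ± 0.64) was lost without lung PSGL1lo replicate 2 (-2.65, adjusted p = 0.0504). Penk, the precursor of enkephalin peptides, was at 78.9 and 69.995 CPM in spleen and 84.4 and 68.2 CPM in lung PSGL1hi cells and rose from 65.6 and 66.7 to 523 and 356 CPM in PSGL1lo cells (difference -2.698 ± 0.19, adjusted p = 1.26e-08). Nrgn, a calmodulin binding protein, was higher in lung by 1.06 ± 0.18 in PSGL1hi and by 3.77 ± 0.18 in PSGL1lo cells. Cd109, a TGF-beta coreceptor, differed by -1.68 ± 0.18 in PSGL1hi and by 1.16 ± 0.17 in PSGL1lo cells. Lag3 also changed sides, -0.34 ± 0.08 in PSGL1hi and 1.06 ± 0.08 in PSGL1lo cells. Granzyme B was lower in lung in both fractions, -0.73 ± 0.13 in PSGL1hi and -2.24 ± 0.15 in PSGL1lo cells (difference 1.51 ± 0.20). Cx3cr1 did not pass in PSGL1hi cells (-0.07 ± 0.14) and rose from 21.1 and 14.99 to 62.9 and 43.6 CPM in PSGL1lo cells (difference -1.64 ± 0.21).

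**Figure D5:**
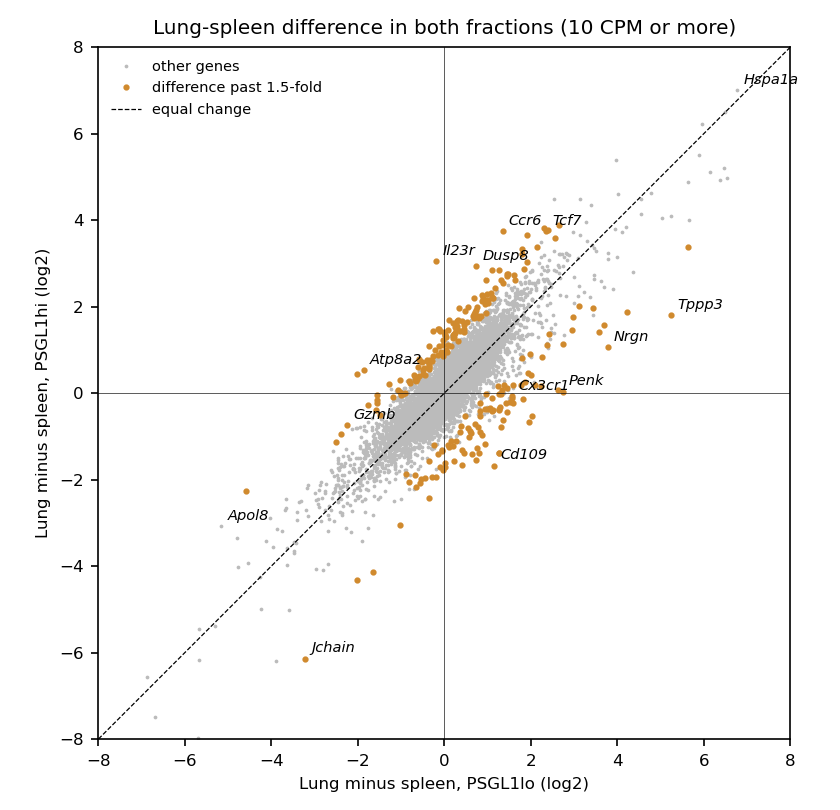
Lung minus spleen difference (log2) of 9285 genes with at least 10 CPM in one of the 4 groups, in PSGL1lo (horizontal) and PSGL1hi cells (vertical), with 10 genes outside the axes. Orange points are the 245 genes whose difference between the fractions passed the 1.5-fold test, and the dashed line marks equal differences. Il23r and Ccr6 lie above the line, Penk and Cd109 below it, and Hspa1a near it.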

How the data were processed

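Raw read counts per gene symbol were used as the authors deposited them, one column per library, for 14 libraries in 7 groups of 2. Per the labels' protocols RNA came from a Qiagen RNeasy extraction and Kapa's mRNA HyperPrep chemistry gave the libraries. TopHat2 2.0.8, HTSeq and the mm9 build are named in the submitters' processing notes. Annotation and strand setting are unknown, so antisense partners and near-identical copies may share reads.

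The genes left out were histone genes, current symbols and variants included, and small RNA genes by symbol or RefSeq biotype. This is wider than the symbol prefixes first listed. The file also holds 26 date-like entries in place of symbols, which were not named. Analysis ran in R 4.3.3 with edgeR 4.0.16: TMM scaling, a filter on low counts by group, and quasi-likelihood tests with 7 residual degrees of freedom over all 14 libraries, two-sided, at an adjusted p of 0.05 (Benjamini-Hochberg), with a threshold test against a 1.5-fold change. Of 699 list symbols, 6 had no entry. The members and lists were chosen with earlier results of these data known.

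Named genes were a set of key genes, list members, the 10 leading genes in each direction of at least 10 CPM, the 5 leading genes per direction at the detection limit and for the difference between fractions, and, chosen after values were seen, the 10 leading per direction with at least 100 CPM in the higher and 20 CPM in the lower group. On simulated data for the lung-spleen comparison of 13515 genes, edgeR recovered 68% of 50 genes changed 1.5-fold and 98% of 50 changed 2-fold. It called 9 of 13315 unchanged genes. The simulation changed few genes, only in lung PSGL1hi, and held no shift between library series. Its rates therefore do not carry over to the comparison made here, where 61.7% of genes were called. Alternatives were DESeq2 1.42.0, limma 3.58.1 (voom), other size factors, no filter, the compared groups alone, the left-out genes kept, each replicate left out, a replicate block over all libraries or within each tissue, and an offset for GC content and length. Some of the genes these rules name are not reported here.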

Additional observations from a re-analysis of the deposited data

Results flagged for a closer look

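Among the genes named above, 45 had a lung-spleen difference that differed between PSGL1hi and PSGL1lo cells past 1.5-fold. Each had an adjusted p under 0.05 in edgeR's test of that difference itself. Over all genes tested, 294 (2.18%) passed the 1.5-fold test. Some of the 45 were named because they lead this same difference, so their number is no finding about the named genes. Values below are the lung-spleen difference in PSGL1hi cells minus that in PSGL1lo cells on the log2 scale.

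Cytokine, chemokine and adhesion receptors with a larger value in PSGL1hi cells were Il23r (3.22), Ccr6 (2.41), Il12rb2 (1.43), Il1r1 (1.397), Icos (1.28), Tgfbr3 (1.27), Ccr4 (1.18), Cxcr4 (1.17) and Ccr7 (1.13). Transcription factors and signalling genes with a larger value in PSGL1hi cells were Dusp8 (2.19), Rora (1.58), Nr4a3 (1.41), Tcf7 (1.401), Egr1 (1.31), Rgs2 (1.13), Fosl2 (1.13), Tnfaip3 (1.11), Prdm1 (1.03) and Cish (0.95). The remaining genes with a larger value were Atp8a2 (2.39), Neurl3 (1.74), Gzmb (1.51), Furin (1.39), Vps37b (1.36), Hsph1 (1.29), Cd40lg (1.19) and Apbb1ip (1.04). For Gzmb the positive value reflects a smaller fall in PSGL1hi cells, -0.73 against -2.24. Prdm1 and Atp8a2 were lower in lung in PSGL1lo cells, by -0.79 and -1.86, against 0.24 and 0.53 in PSGL1hi cells.

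Genes with a smaller value in PSGL1hi cells included some known from macrophages, plasma cells or stroma, Spp1 (-1.21), Irf8 (-1.21), C1qa (-1.45), Csf1r (-1.66), Vcam1 (-2.31) and Jchain (-2.93). The others were Egr2 (-0.98), Tox (-0.99), Angptl2 (-1.25), Ier3 (-1.396), Lag3 (-1.41), Cx3cr1 (-1.64), Rnf128 (-1.75), Gpt2 (-2.48), Penk (-2.698), Nrgn (-2.71), Cd109 (-2.83) and Tppp3 (-3.44). Tppp3 was at the detection limit in spleen PSGL1lo cells, so its size is uncertain. Penk, Ier3 and Cx3cr1 were called in PSGL1lo cells and did not pass in PSGL1hi cells. Cd109 and Lag3 were lower in lung in PSGL1hi cells and higher in PSGL1lo cells. Summed myeloid markers were 635 to 664.6 CPM in spleen and 871 to 1073 CPM in lung in PSGL1hi cells, and 340.3 to 349.5 CPM and 979.6 to 1441 CPM in PSGL1lo cells, and their part in these differences was not tested.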

How the results depend on the processing

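Of the alternative values of the 6 counts of genes called, 78 stayed within 1.5 times the main count and 4 did not, all of the difference between fractions past 1.5-fold: 153 with DESeq2, 141 with limma voom, 188 leaving out spleen PSGL1hi replicate 2 and 193 leaving out replicate 1 of spleen PSGL1lo, against 294. Leaving out each library in turn gave 7183 to 7471 genes called between lung and spleen, 2916 to 3191 past 1.5-fold, 3646 to 4057 between lung and liver, 855 to 938 past 1.5-fold, 1568 to 2048 for the difference between fractions and 188 to 287 past 1.5-fold. DESeq2 also moved the genes lower in lung past 1.5-fold, from 1759 to 1143 against spleen and from 335 to 169 against liver. The median difference of all genes ran from -0.0589 to 0. Replicate numbers did not pair the lung and spleen libraries (r = 0.0578 across genes, which are not independent), and a replicate block gave 8275, 3569, 5247, 1141, 2203 and 280 genes in the order above. Same-numbered PSGL1lo and PSGL1hi libraries correlated at 0.179 in lung, 0.108 in spleen and 0.0829 in liver, and the labels do not say whether they share a source. A replicate block within each tissue, chosen after seeing the data, gave 2841 and 391 genes for the difference between fractions. An offset for GC content and length, also chosen after seeing the data, reversed Inpp4b (-0.22 to 0.055, adjusted p = 0.297) and Nfkb2 (0.02 to -0.19, adjusted p = 0.00498). Over genes, the lung-spleen difference had a Spearman correlation of 0.141 with GC content and 0.00871 with length, for the 98.5% of genes with values. Calls lost under an alternative are given beside the genes above, except Scgb1a1 with limma voom (adjusted p = 0.132), and Car4 and Sftpc with DESeq2 (adjusted p = 0.297 and 0.221). With 2 libraries per group and 1 library series per tissue, no value here separates tissue from series in the lung-spleen comparison.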
